A study of Mus musculus with 4 samples.

Results

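The genes described here make, bind and break down hyaluronan in Swiss 3T3 cells, a mouse fibroblast line. They are the hyaluronan synthases Has1, Has2 and Has3, the hyaluronan receptor Cd44, the hyaluronidases Hyal1 and Hyal2, and Tnfaip6. They were taken by gene name from the array files, and the 7 genes, of 29675 on the array, have 13 of its 39429 probes. The study concerned the exchange of signals between fibroblasts and maturing mast cells.

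Fibroblasts of 2 genotypes were compared at 2 times of coculture with wild-type mast cells grown from mouse bone marrow. The 4 groups were Lpar1-/- fibroblasts (KO) at 24 h, Lpar1+/+ fibroblasts (WT) at 24 h, KO at 0 h and WT at 0 h. The product of Lpar1 is a cell-surface receptor of the signalling lipid lysophosphatidic acid. The KO cells were made with CRISPR/Cas9, using a guide near exon 3, and came from a cloned cell, so a difference between genotypes is a difference between this clone and the WT cells. The coculture medium held 100 ng/ml stem cell factor (SCF). The protocol separates the cells after coculture either by trypsin and reseeding or by beads against the mast cell protein Kit. What the 0 h samples held is not stated in the labels. Each group had 1 array, hybridised with RNA pooled from 3 samples, so replicate error is unknown and nothing could be tested.

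Hyaluronan is a long sugar chain without a protein core. The synthases build it at the plasma membrane from activated sugars and push it out of the cell, and Has2 is the main synthase of many mesenchymal cells. CD44 holds the chain at the cell surface. HYAL2 cuts long chains at the surface and HYAL1 cuts the pieces in the lysosome. TSG-6, the protein of Tnfaip6, moves protein chains from inter-alpha-inhibitor onto hyaluronan, which stiffens the coat around the cell.

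Values are normalized log2 signals: log2 of the processed intensity minus the array's own 75th percentile, so that 0 is that percentile. Signals of different probes were not compared with each other. Errors are standard errors (SE) of a difference that come from the scanner software's spot error, cover neither culture nor labelling, and were 0.20 to 0.41 for a member's difference of 2 arrays. A gene was called higher or lower where its brightest probe differed by at least 2-fold, that is by 1 on the log2 scale, and was well above background on each array involved. Of the 13 probes, 8 were well above background on all 4 arrays, and these belong to 5 of the 7 genes.

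The share of spots well above background was 62.1% on KO 24 h, 67.3% on WT 24 h, 71.5% on KO 0 h and 72.7% on WT 0 h, with 0 saturated spots. The Lpar1 probe read −3.61 on KO 24 h, −3.15 on WT 24 h, −3.43 on KO 0 h and −3.20 on WT 0 h, with KO minus WT differences of −0.46 and −0.22 (SE 0.21 each), and where it lies with respect to the edit was not examined. Fibroblast markers were present on all arrays, with 19 of 21 well above background on KO 24 h and 20 of 21 on each of the others. They also differed between genotypes, KO minus WT. At 24 h 1 of 18 measured was called higher and 5 lower, where 5.76% of all genes were higher and 12.2% lower. At 0 h 2 of 20 were higher and 8 lower, where 9.26% were higher and 4.04% lower. Thy1 read 4.12 on KO 24 h, 3.73 on KO 0 h and −7.02 on WT 0 h. It was not well above background on WT 24 h. Fap was at least 63.4-fold dimmer on KO 24 h than on WT 24 h. Mast cell markers were abundant on the 0 h arrays and scarce on the 24 h arrays. Of 22 such markers, 15 were well above background on KO 24 h, 16 on WT 24 h, 22 on KO 0 h and 21 on WT 0 h. Their summed linear signal, in units of each array's 75th percentile, was 23.3 on KO 24 h, 4.6 on WT 24 h, 670.3 on KO 0 h and 451.3 on WT 0 h, and single markers ranged from −8.96 to 3.86, −8.32 to 0.85, −5.40 to 6.76 and −9.29 to 6.41 in that order. At 24 h 1 marker, Il1rl1, made most of the KO sum, with 3.86 on KO 24 h and −2.24 on WT 24 h, and without it the sums were 8.7 on KO 24 h, 4.4 on WT 24 h, 592.8 on KO 0 h and 391.9 on WT 0 h. Kit read −5.40 on KO 24 h, was not well above background on WT 24 h, and read 5.37 on KO 0 h and 4.45 on WT 0 h. Of the 20 pan-leukocyte markers all were well above background on both 0 h arrays. In such mixed samples, fewer cells of a type and less RNA per cell cannot be told apart. Fibroblast markers differed between times as well, with 10 of 19 called higher and 1 lower at 24 h in KO (median 1.11), and 6 of 19 higher and 0 lower in WT (median 0.55). Every difference between times below was measured beside these differences in mast cell and fibroblast transcripts, whose part in it was not tested.

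**Figure D1:**
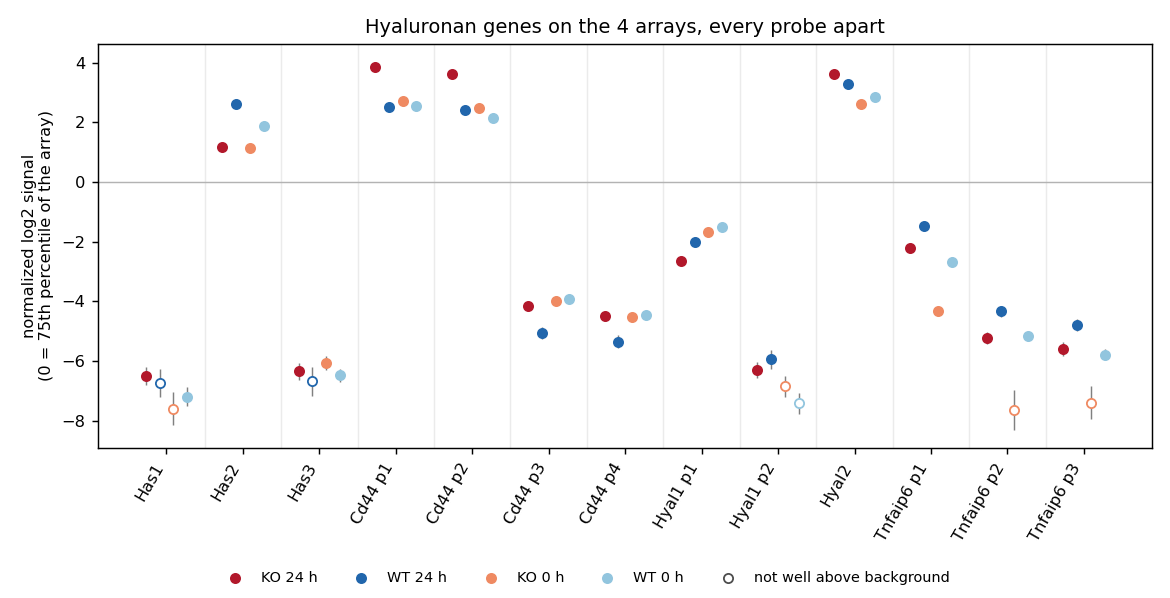
Normalized log2 signal (y axis, 0 is the array's 75th percentile) of every probe of the 7 genes (x axis) on KO 24 h, WT 24 h, KO 0 h and WT 0 h, 1 point per array. Bars are the SE of the spot error and open points were not well above background. Has2 reads lower on both KO arrays than on both WT arrays, and the 2 brightest Cd44 probes stand highest on KO 24 h.

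Has2 was the synthase with a clear signal, and it was lower in KO than in WT at both times. Its probe, on chromosome 15 from 56497356 to 56497415 (mm9, minus strand), read 1.16 on KO 24 h, 2.63 on WT 24 h, 1.13 on KO 0 h and 1.89 on WT 0 h. Both KO arrays lay below both WT arrays. The genotype difference, KO minus WT, was −1.47 at 24 h (SE 0.20), which is 2.77-fold lower, and 6.23% of measured genes lay at least as far down. At 0 h it was −0.76 (SE 0.20), short of the 2-fold call. The WT arrays differed by 0.75 between 24 h and 0 h (SE 0.20), whereas the KO arrays differed by 0.04 (SE 0.20), less than the spot error. The difference between these changes was −0.71 (SE 0.29). Scaling the arrays on fibroblast markers left Has2 at −1.02 at 24 h but turned the 0 h difference to 0.27. Scaling on spike-in RNAs, an alternative added after seeing the data, gave −2.22 at 24 h and −1.20 at 0 h.

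Has1 and Has3, the other synthases, read near the detection floor. Has1 (chromosome 17, 17980413 to 17980472, mm9, minus strand) was well above background at −6.50 on KO 24 h and −7.20 on WT 0 h, and not on WT 24 h or KO 0 h. Its signal on KO 24 h was at least 1.21-fold that on KO 0 h, set against the lowest signal well above background on that array. Such at-least folds hold for the scaling on the 75th percentile, and normexp background correction, which adds an offset of 50 to each signal, gives smaller differences for dim probes. Has3 (chromosome 8, 109405354 to 109405413, mm9, plus strand) read −6.35 on KO 24 h, −6.06 on KO 0 h and −6.48 on WT 0 h, and was not well above background on WT 24 h. For Has3 the KO minus WT difference at 0 h was 0.42 (SE 0.33), and 24 h minus 0 h in KO was −0.29 (SE 0.37), both within 2 SE. Fibroblast marker scaling took these to 1.45 and −1.21, past 2-fold.

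Cd44 was higher in KO than in WT at 24 h at all 4 of its probes, and at 0 h the genotypes were close. The probes, here p1 to p4 from the brightest to the dimmest, lie on chromosome 2 (mm9, minus strand) at 102651398 to 102651457 (p1), 102654278 to 102654337 (p2), 102677971 to 102678030 (p3) and 102672645 to 102672704 (p4). Along the gene's strand p3 comes first, p4 lies 5.3 kb after it, p2 lies 18.3 kb after p4, and p1 lies 2.8 kb after p2. Sequences of p2, p3 and p4 are shown because the probes that lie far apart gave different answers between times. The probe sequences in the files read, 5′ to 3′ on the gene's strand, with the stop codon in the first forward frame of p2 in capitals:
Cd44 p2: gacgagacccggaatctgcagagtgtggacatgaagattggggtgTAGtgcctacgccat
Cd44 p3: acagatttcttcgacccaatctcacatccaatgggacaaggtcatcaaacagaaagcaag
Cd44 p4: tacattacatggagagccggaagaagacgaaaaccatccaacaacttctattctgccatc
Neither p3 nor p4 has a stop codon in any of its 3 forward frames. The exons in which the probes lie were not annotated here.

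The brightest probe, p1, read 3.87 on KO 24 h, 2.51 on WT 24 h, 2.70 on KO 0 h and 2.53 on WT 0 h. KO 24 h stood above the others, which lay between 2.51 and 2.70. Probe p2 read 3.63 on KO 24 h, 2.42 on WT 24 h, 2.49 on KO 0 h and 2.16 on WT 0 h, again with KO 24 h above the others. Probe p3 read −4.17 on KO 24 h, −5.07 on WT 24 h, −3.98 on KO 0 h and −3.92 on WT 0 h. Probe p4 read −4.51 on KO 24 h, −5.35 on WT 24 h, −4.54 on KO 0 h and −4.47 on WT 0 h. On p3 and p4 it was WT 24 h that stood below the others.

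All 4 Cd44 probes gave the same sign between genotypes at 24 h. The KO minus WT difference came to 1.36 at p1 (SE 0.20), 1.21 at p2 (SE 0.20), 0.89 at p3 (SE 0.25) and 0.84 at p4 (SE 0.27). At 0 h it was 0.17, 0.34, −0.05 and −0.06 in the same order, each within 2 SE. The probes disagreed between times. In KO, 24 h minus 0 h was 1.17 at p1 and 1.13 at p2 (SE 0.20 each), against −0.20 at p3 (SE 0.21) and 0.03 at p4 (SE 0.22). In WT it was −0.02 at p1 and 0.27 at p2, against −1.14 at p3 (SE 0.25) and −0.88 at p4 (SE 0.27). Signals of p3 and p4 were dim, and their differences between times moved with processing. In WT p3 and p4 gave −0.55 and −0.41 with normexp, where p1 gave −0.21. With spike-in scaling they gave −2.13 and −2.02, where p1 gave −0.23. In KO quantile normalization gave 0.26 at p3 and 0.52 at p4, where p1 gave 0.90. The KO change exceeded the WT change at every probe, by 1.19 at p1, 0.87 at p2, 0.95 at p3 and 0.91 at p4 (SE 0.29 to 0.35). Spike-in RNAs of 4 kinds in the range from −2.68 to 2.57 read 0.62 to 0.81 higher on KO 24 h than on WT 24 h, and with spike-in scaling p1 was 0.79 at 24 h and 0.94 for the difference of changes, both short of the call. Fibroblast marker scaling gave p1 a KO minus WT difference of 1.21 at 0 h and a difference of changes of 0.60.

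The hyaluronidases differed from each other. Hyal2 (chromosome 9, 107474949 to 107475008, mm9, plus strand) read 3.63 on KO 24 h, 3.29 on WT 24 h, 2.60 on KO 0 h and 2.86 on WT 0 h. Both 24 h arrays lay above both 0 h arrays. The 24 h minus 0 h difference was 1.03 in KO (SE 0.20), just past 2-fold, and 0.43 in WT (SE 0.20), and the difference of these changes was 0.60 (SE 0.29). Between genotypes Hyal2 differed by 0.35 at 24 h and −0.26 at 0 h (KO minus WT, SE 0.20 each), both within 2 SE.

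Hyal1, which lies beside Hyal2 with its probes 6.9 kb and 8.9 kb further along the chromosome, went the other way between times at its brighter probe. That probe (107483891 to 107483950, plus strand) read −2.64 on KO 24 h, −2.00 on WT 24 h, −1.69 on KO 0 h and −1.50 on WT 0 h. Both 24 h arrays lay below both 0 h arrays. The 24 h minus 0 h difference was −0.95 in KO and −0.50 in WT (SE 0.21 each), and KO minus WT at 24 h was −0.64 (SE 0.21). None of these reached 2-fold. The KO difference between times passed it with fibroblast marker scaling (−1.87) and spike-in scaling (−1.52), and the genotype difference at 24 h with spike-in scaling (−1.30). The dimmer probe (107481893 to 107481952) read −6.29 on KO 24 h and −5.95 on WT 24 h, and was not well above background on either 0 h array. It was at least 2.66-fold brighter on WT 24 h than on WT 0 h and at least 1.40-fold brighter on KO 24 h than on KO 0 h. The direction of the dimmer probe was thus opposite to that of the brighter one, but in KO its fitted difference of 0.56 turned to −0.36 with fibroblast marker scaling, and in WT its 1.48 was 0.06 with normexp. The 2 dimmest spike-in RNAs, with mean signals of −6.81 and −4.99, were each higher on WT 24 h than on WT 0 h by 0.98 or more, and their part in the values of the dim Hyal1 and Cd44 probes was not tested.

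Tnfaip6 spanned the widest range of the 7 genes at their brightest probes. It was higher at 24 h than at 0 h in both genotypes and lower in KO than in WT at both times. Its brightest probe (chromosome 2, 51912073 to 51912132, mm9, plus strand) read −2.20 on KO 24 h, −1.48 on WT 24 h, −4.34 on KO 0 h and −2.67 on WT 0 h. KO 0 h was the lowest array. Its KO minus WT difference was −0.72 at 24 h (SE 0.20) and −1.67 at 0 h (SE 0.21), the second being 3.19-fold lower. With fibroblast marker scaling the 0 h difference was −0.64, short of the call. The 24 h minus 0 h difference was 2.14 in KO (SE 0.21) and 1.19 in WT (SE 0.20). Of all measured genes, 0.436% were at least as far up in KO, and 11.9% in WT.

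The other Tnfaip6 probes lie 9 bases after (p2, 51912142 to 51912201) and 506 bases before it (p3, 51911507 to 51911566), close together on the same strand. At 24 h p2 read −5.24 on KO and −4.34 on WT, and p3 read −5.60 on KO and −4.81 on WT. On WT 0 h p2 read −5.18 and p3 −5.79. Neither was well above background on KO 0 h, the array where the brightest probe was lowest. KO 0 h was at least 3.02-fold dimmer than WT 0 h at p2 and at least 1.97-fold dimmer at p3. With normexp the same differences were −0.48 and −0.30, and fibroblast marker scaling gave −0.57 at p3. KO 24 h was at least 2.90-fold brighter than KO 0 h at p2 and at least 2.25-fold brighter at p3, where normexp gave 0.53 and 0.41. KO minus WT at 24 h was −0.90 at p2 (SE 0.26) and −0.79 at p3 (SE 0.30). These lay near the value of the brightest probe, as they did with the authors' value table. With fibroblast marker scaling the brightest probe gave −0.28, p2 −0.45 and p3 −0.34. The probes lay further apart with quantile, normexp and spike-in scaling. There p2 gave −0.47, −0.22 and −0.13 and p3 −0.13, −0.09 and −0.04, where the brightest probe gave −0.71, −0.53 and −1.35.

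**Figure D2:**
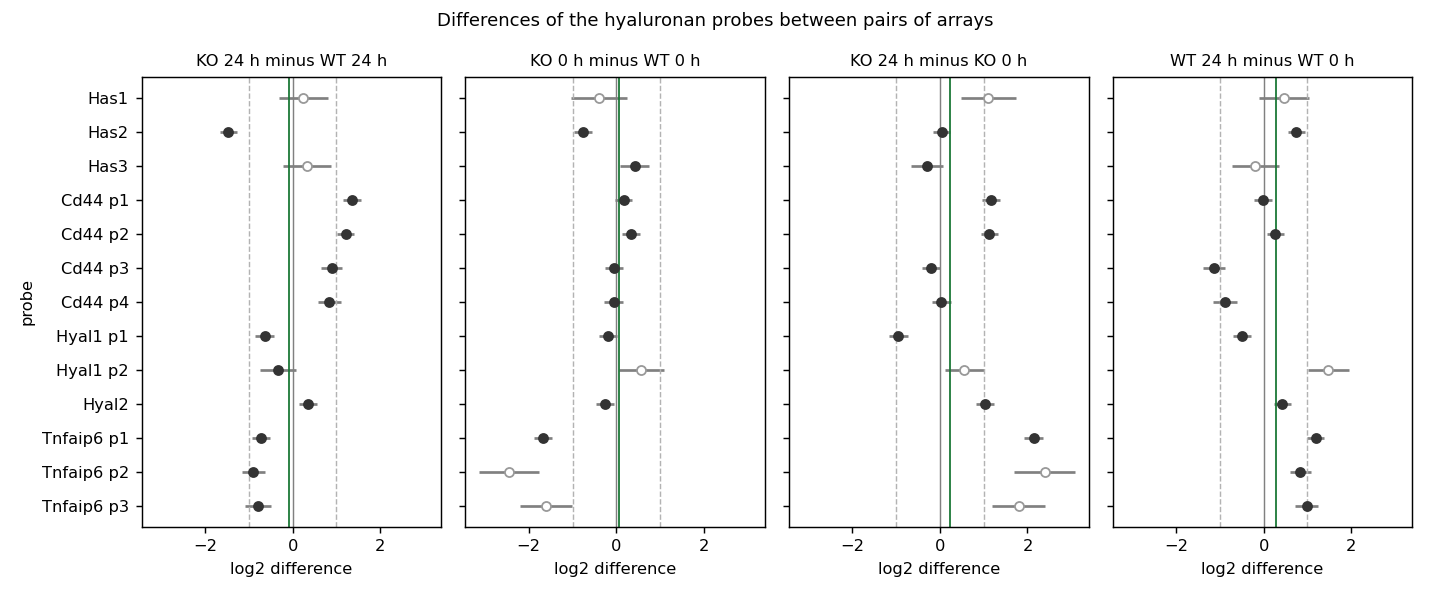
Log2 difference (x axis) of each probe (rows) between pairs of arrays (panels), with its SE from spot error. Open points were not well above background on both arrays, dashed lines mark 2-fold and the green line is the median of all measured genes. Has2 lies left of 0 and Cd44 right of 0 in KO 24 h minus WT 24 h, and Tnfaip6 lies right of 2-fold at its brightest probe in both comparisons of times.

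Read against the whole array, the counts of members were small. For KO minus WT at 24 h, 1 of 5 measured members was called higher (Cd44) and 1 lower (Has2), where 5.76% of 17316 measured genes were called higher and 12.2% lower. The members' median difference was −0.64, and that of all genes −0.09. For KO minus WT at 0 h, 0 of 6 members were called higher and 1 lower (Tnfaip6), where 9.26% of 20324 genes were called higher and 4.04% lower. The medians were −0.22 for the members and 0.06 for all genes. Mast cell and pan-leukocyte markers differed in the same pair of arrays, with medians of 0.97 over 21 measured markers and 1.05 over 20, and fibroblast markers had a median of −0.43 over 20. The part of these in the 0 h genotype differences was not tested.

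For 24 h minus 0 h in KO, 3 of 6 members were called higher (Tnfaip6, Cd44 and Hyal2) and 0 lower, where 9.47% of 17881 genes were called higher and 10.9% lower. The members' median was 0.54, and that of all genes 0.23. Of these calls, Tnfaip6 stayed past 2-fold under each of 5 other scalings of the arrays, with values from 1.22 to 2.44. Cd44 ranged from 0.25 to 1.17 and Hyal2 from 0.12 to 1.03 under them. For 24 h minus 0 h in WT, 1 of 5 members was called higher (Tnfaip6) and 0 lower, where 15.8% of 19219 genes were called higher and 5.57% lower. The Tnfaip6 call ended when the arrays were scaled on fibroblast markers (0.86) or on spike-ins (0.78). For the KO change minus the WT change, 1 of 5 members was called higher (Cd44) and 0 lower, where 4.69% of 17143 genes were called higher and 13.3% lower. The members' medians were 0.43 in WT and 0.60 for the difference of changes, and those of all genes 0.28 and 0.03. The pairs of arrays overlap between these comparisons, so their counts are not independent.

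**Figure D3:**
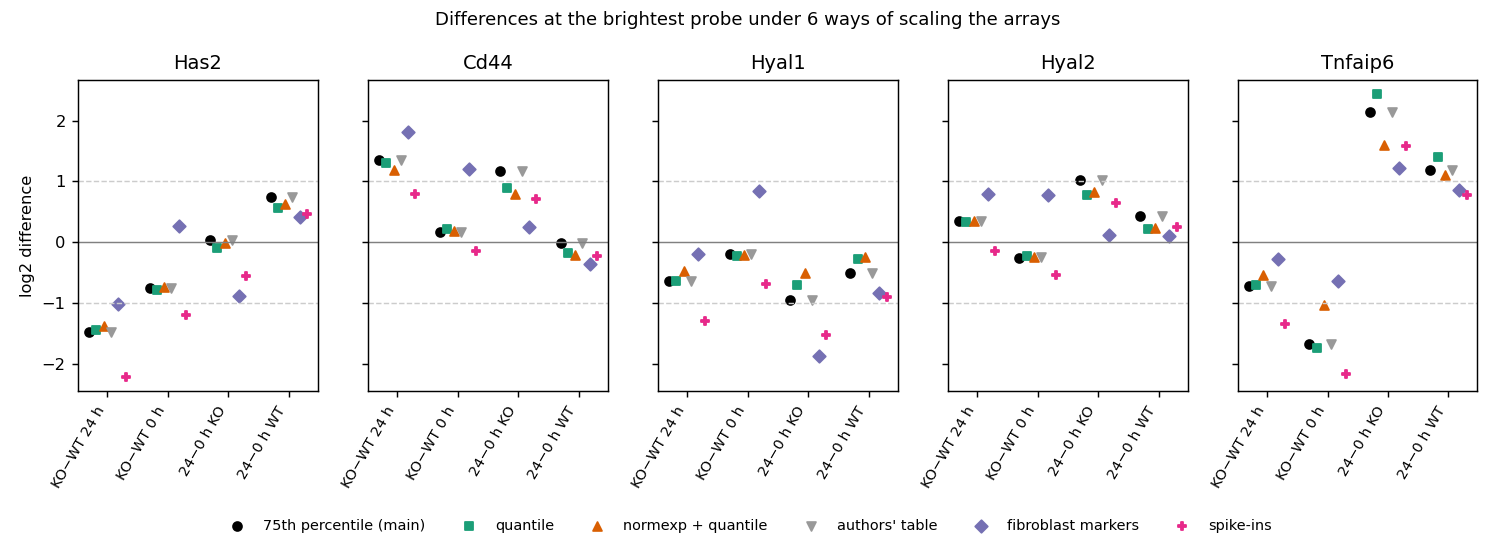
Log2 difference (y axis) at the brightest probe of Has2, Cd44, Hyal1, Hyal2 and Tnfaip6 for the 4 pairs of arrays (x axis), under 6 ways of scaling the arrays (symbols), with dashed lines at 2-fold. Has2 at 24 h stays below −1 and Tnfaip6 in KO stays above 1 under every scaling, while Has2 at 0 h lies between −1.20 and 0.27.

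Promoters are shown for Tnfaip6 and Cd44, the members with the largest called differences in KO between times. The RefSeq promoter table (GRCm38.p6, 250 bases before to 50 bases after the start) held 5 of the 7 genes, and Has2 and Has3 were not among them. The Tnfaip6 promoter lies at chr2:52037863-52038162 (plus strand) and the Cd44 promoter at chr2:102901616-102901915 (minus strand). Capitals mark a match to the AP-1 motif.
Tnfaip6 promoter: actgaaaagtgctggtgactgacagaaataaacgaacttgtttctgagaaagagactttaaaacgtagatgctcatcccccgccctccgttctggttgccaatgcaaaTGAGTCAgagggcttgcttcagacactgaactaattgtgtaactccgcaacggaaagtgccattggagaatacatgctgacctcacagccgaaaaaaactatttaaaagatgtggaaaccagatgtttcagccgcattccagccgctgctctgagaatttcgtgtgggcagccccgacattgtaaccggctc
Cd44 promoter: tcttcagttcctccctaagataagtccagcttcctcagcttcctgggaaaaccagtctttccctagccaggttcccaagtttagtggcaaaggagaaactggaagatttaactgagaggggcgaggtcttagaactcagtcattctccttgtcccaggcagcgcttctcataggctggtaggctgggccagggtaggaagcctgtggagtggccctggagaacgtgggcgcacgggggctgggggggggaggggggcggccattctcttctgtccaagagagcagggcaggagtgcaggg
The Tnfaip6 promoter has a GC content of 47.0% and the Cd44 promoter 58.0%, with a median of 52.7% over all promoters. Searched on both strands were the AP-1 motif TGANTCA, the cAMP response element TGACGTCA, the CArG box and the NF-kappaB motif, counted apart from each other. Of 32851 promoters, 7.81% held the AP-1 motif, 1.79% the cAMP response element, 1.63% the CArG box and 4.51% the NF-kappaB motif. Tnfaip6 had 1 AP-1 match, TGAGTCA, 142 bases before the start, and Cd44 had 0 matches to any of them. Has1 had a cAMP response element match 83 bases before its start, Hyal2 an NF-kappaB match 238 bases before its start, and Hyal1 had 0 matches. No promoter of these genes held more than 1 match, so none overlapped. These matches describe the letters of the windows.

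Around the 7 genes, a wider list held 44 further genes of hyaluronan biology. Of these, 27 were measured for KO minus WT at 24 h, with 1 called higher and 7 lower and a median of −0.15, where 5.76% of all genes were higher and 12.2% lower with a median of −0.09. At 0 h 31 were measured, with 4 higher and 4 lower and a median of 0.07, where 9.26% of all genes were higher and 4.04% lower with a median of 0.06. For 24 h minus 0 h there were 4 higher and 2 lower of 29 in KO (median 0.35), where 9.47% of all genes were higher and 10.9% lower (median 0.23). In WT there were 6 higher and 0 lower of 29 (median 0.49), where 15.8% of all genes were higher and 5.57% lower (median 0.28).

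Of 7 genes for the precursors that feed the synthases, Gfpt2 and Ugp2 were called lower in KO than in WT at 24 h. Ugdh (0.63) and Pgm3 (0.34) lay above 0 in KO minus WT at that time. Uap1 was close to 0, with its 2 probes at −0.27 and 0.02. With spike-in scaling Ugdh was 0.53, Pgm3 −0.47 and Uap1 −0.64. Gfpt2, which starts the hexosamine pathway that leads to UDP-N-acetylglucosamine, read −2.26 on KO 24 h, −0.22 on WT 24 h, −2.99 on KO 0 h and −0.83 on WT 0 h. The genotype differences were −2.05 (24 h) and −2.16 (0 h), with an SE of 0.21 each, past 2-fold under all scalings. Ugp2, which makes UDP-glucose, read 1.85 on KO 24 h, 3.16 on WT 24 h, 1.41 on KO 0 h and 2.12 on WT 0 h. Its KO minus WT differences were −1.32 and −0.71, and its 2 probes gave −1.53 and −1.32 at 24 h. Fibroblast marker scaling took Ugp2 to −0.87 at 24 h, ending its call, and to 0.33 at 0 h. Gfpt1, the paralog of Gfpt2, differed by −1.36 between 24 h and 0 h in KO at its brightest probe, but its 3 probes spanned −1.36 to 0.20. Of the 7 precursor genes, 2 were called lower and 0 higher at 24 h, where 12.2% of all genes were lower and 5.76% higher. At 0 h 1 was lower (Gfpt2) and 0 higher, where 4.04% of all genes were lower and 9.26% higher.

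Among partners that crosslink or fill the hyaluronan coat, Ptx3 had the lowest KO minus WT differences. Ptx3, a pentraxin that joins the protein chains placed on hyaluronan by TSG-6, read 0.75 on KO 24 h, 2.85 on WT 24 h, 0.06 on KO 0 h and 2.90 on WT 0 h. These are differences of −2.10 (24 h) and −2.84 (0 h) with an SE of 0.20 each, the same sign as Has2 and Tnfaip6, and both stayed past 2-fold under all scalings. Vcan, a proteoglycan that binds hyaluronan, read 3.63 on KO 24 h, 4.00 on WT 24 h, 2.20 on KO 0 h and 3.27 on WT 0 h. It was −1.07 in KO minus WT at 0 h and 1.43 in 24 h minus 0 h in KO, and fibroblast marker scaling took these to −0.03 and 0.51. Its 3 probes spanned −1.19 to −0.52 in the first difference and 0.64 to 1.99 in the second, so not every probe passed 2-fold. Hapln4, a link protein best known from brain, was 2.31 higher in KO at 0 h (SE 0.34) and at least 9.17-fold brighter on KO 24 h than on WT 24 h, where it was not well above background. With normexp these differences of Hapln4 were 0.47 at 0 h, ending the call, and 1.57 at 24 h. Itih5, a heavy chain of the inter-alpha-inhibitor family, read −1.60 on KO 0 h and −2.85 on WT 0 h, and was not well above background at 24 h, where it was at least 34.1-fold dimmer in KO and at least 9.98-fold dimmer in WT. With normexp its differences between times were −2.44 in KO and −1.71 in WT. Itih4, another heavy chain, was 1.42 higher at 24 h than at 0 h in WT, but 0.78 with normexp and 0.62 with spike-in scaling. Itih3, a further heavy chain, was −1.02 in 24 h minus 0 h in KO and −0.19 with normexp.

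Of 5 other receptors measured for KO minus WT at 24 h, 3 were called lower (Tlr2, Stab1 and Tlr4) and 0 higher. The median of the 5 was −1.16. Of all genes, 12.2% were lower and 5.76% higher, with a median of −0.09. Layn (0.75) and Hmmr (0.60) lay above 0. Tlr4 was −1.16, and −0.72 with fibroblast marker scaling, which ended its call. Tlr2, a receptor of microbial products to which hyaluronan fragments are also reported to signal, read −1.22 on KO 24 h, 0.92 on WT 24 h, −2.79 on KO 0 h and −1.07 on WT 0 h. It was lower in KO, by −2.14 (24 h) and −1.72 (0 h) as KO minus WT, while 24 h minus 0 h was 1.57 in KO and 1.99 in WT. Fibroblast marker scaling took Tlr2 to −0.68 in KO minus WT at 0 h and to 0.65 for the KO change, and spike-in scaling took the KO change to 0.97, each short of 2-fold. Layn, which encodes the hyaluronan receptor layilin, read 0.04 on KO 24 h, −0.71 on WT 24 h, −1.73 on KO 0 h and −1.30 on WT 0 h. For Layn the change, 24 h minus 0 h, was 1.77 in KO and 0.59 in WT, with a difference of changes of 1.18. Fibroblast marker scaling gave Layn 0.85 in KO and 0.59 for the difference of changes, and spike-in scaling 0.96 for the second, so these calls ended. Stab2, a scavenger receptor that clears hyaluronan, read −1.06 on KO 0 h and −2.25 on WT 0 h, and was not well above background at 24 h, where it was at least 49.5-fold dimmer in KO and at least 15.1-fold dimmer in WT. With normexp its differences between times were −3.17 in KO and −2.10 in WT. Stab1, a related scavenger receptor, was −1.21 in KO minus WT at 24 h with signals from −5.35 to −4.14 over the arrays, and −0.17 with normexp.

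Ezr, which encodes ezrin, a linker of CD44 to actin, was higher in KO. It read 1.83 on KO 24 h, 0.51 on WT 24 h, 1.21 on KO 0 h and 0.41 on WT 0 h. The genotype differences were 1.32 (24 h) and 0.80 (0 h), with an SE of 0.20 each. With spike-in scaling Ezr was 0.53 at 24 h, short of the call. Of the 3 listed linkers, 1 was called higher and 0 lower at 24 h, with a median of 0.58, where 5.76% of all genes were higher and 12.2% lower. Cemip, a protein needed for hyaluronan breakdown in fibroblasts, was dim at −5.81 on KO 24 h, −4.80 on WT 24 h, −5.17 on KO 0 h and −6.38 on WT 0 h. Its KO change minus WT change was −2.21, in a signal range where the spike-in RNA at −4.99 gave −1.48. It was −0.34 with normexp and −0.79 with spike-in scaling, both short of 2-fold.

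**Figure D4:**
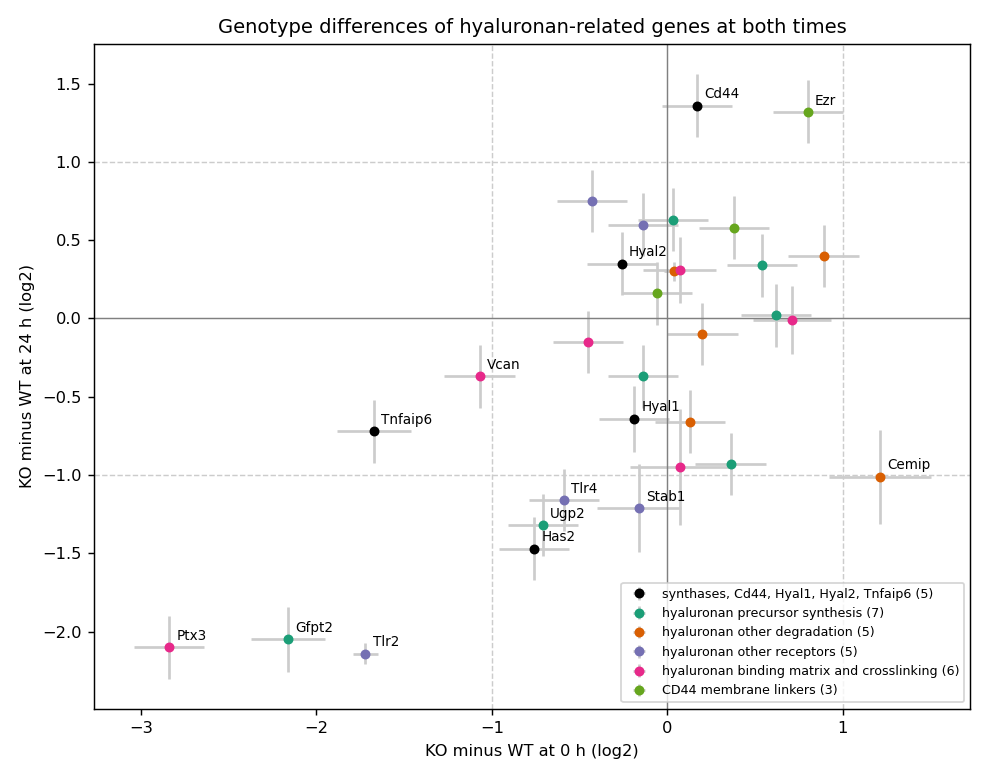
KO minus WT at 24 h (y axis) against KO minus WT at 0 h (x axis), both log2 with the SE of the spot error, for the 31 hyaluronan-related genes measured in both. Dashed lines mark 2-fold and colours give the gene's role. Gfpt2, Tlr2 and Ptx3 lie below −1 on both axes, and Cd44 and Ezr lie above 1 at 24 h.

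The genes with the most similar profiles over the 4 arrays were found by the Euclidean distance between signals centred on each gene's mean, among 12891 genes. For Has2 these were Pcca (distance 0.05), Ssbp4 (0.07) and B3glct (0.14). For Cd44 they were Hpdl (0.05), Chka (0.09) and Peg12 (0.10) at p1, Insyn1 (0.02), Chic1 (0.08) and Tgfb3 (0.08) at p2, and Rhob (0.17), Smco1 (0.17) and Crim1 (0.19) at p3. The genes listed for these 3 Cd44 probes were all different, but with only the nearest 3 kept this does not show that the profiles differ. For Hyal1 they were Hectd2 (0.11), Bfar (0.12) and Bmp8a (0.15), and for Hyal2 Zfp532 (0.03), Psmb7 (0.03) and Lbhd1 (0.04). The nearest to Tnfaip6 were farther, with Zfp467 at 0.22, Apln at 0.25 and Vegfd at 0.28. With 4 arrays a small distance is a description of these arrays.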

How the data were processed

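RNA of 4 groups was measured on 4 Agilent arrays of 1 colour (Cy3), 1 array per group, with 200 ng of RNA labelled per the labels' protocols. The deposited scanner files hold spot intensity from Agilent Feature Extraction 12.1.1.1, which per the file headers was background-corrected and detrended within each array with no scaling across the arrays. Values of the deposited series table are a ratio, the processed signal divided by 749.899 (KO 24 h), 926.641 (WT 24 h), 1002.93 (KO 0 h) and 1197.47 (WT 0 h), so it is linear, not centred and runs with signal.

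Control and outlier spots were left out, spots of a probe were averaged, and each array's 75th percentile over 43020 non-control spots was subtracted on the log2 scale. Probes were named by accession through the RefSeq table of GRCm38.p6 (29110 matched, 10319 kept the file's name). A gene took its probe with the highest mean signal, and members are shown at every probe. Coordinates are those of the files (mm9). An at-least fold sets the bright signal against the dim probe's signal or, where that is higher, the lowest signal well above background on that array.

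The members and lists were chosen with earlier results of these data known. Named genes of the wider list are those at least 2-fold in any difference, up to 3 at each end of each difference, with the following exceptions. Ugp2, Vcan, Stab2 and Tlr4 fall outside these ranks and were chosen after their values were seen. Ugdh, Pgm3, Uap1 and Hmmr did not reach 2-fold in any difference at their brightest probe. They are named beside called genes of the same groups, and were also chosen after their values were seen. Similar profiles are given for each member probe measured on all 4 arrays whose signal spans at least 1 log2. Alternatives were quantile normalization, normexp (offset 50) with quantile normalization (limma 3.58.1 in R 4.3.3), the authors' value table, scaling on 18 fibroblast markers, no filter and a stricter filter on dim probes, the mean of a gene's probes, and, added after seeing the data, scaling on 10 spike-in RNAs. The rest was computed with Python 3.11.15. Calling was run on simulated data that held spot error only, with planted differences well past 2-fold. It therefore cannot show how calls near 2-fold, or calls between cultures, behave. Precision is limited by having 1 array per group. The 18 markers used for scaling include some that differed between genotypes, such as Fbln1 (−3.07) and Postn (2.71) in KO minus WT at 0 h.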

Additional observations from a re-analysis of the deposited data

How the results depend on the processing

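No paired analysis was possible because each group has 1 array. Leaving out a replicate was not possible for the same reason. The authors' value table and the stricter filter on dim probes left every count of called members as reported, and no member difference that had been called changed sign under any alternative. For KO minus WT at 24 h, spike-in scaling gave 0 members higher and 3 lower (Has2, Hyal1 and Tnfaip6). For KO minus WT at 0 h, fibroblast marker scaling gave 2 higher (Cd44 and Has3) and 0 lower, and spike-in scaling gave 2 lower. For 24 h minus 0 h in KO, the mean of probes gave 2 higher (Hyal2 and Tnfaip6), and no filter on dim probes gave 4, with Has1 added. Quantile normalization, normexp, fibroblast marker scaling and spike-in scaling each left 1 higher (Tnfaip6). Of these, fibroblast marker scaling gave 2 lower (Has3 and Hyal1) and spike-in scaling 1 lower (Hyal1). In WT both of these scalings gave 0 higher. For the difference of changes, quantile normalization gave 2 higher, fibroblast marker scaling, spike-in scaling and the mean of probes 0, and fibroblast marker and spike-in scaling gave 2 and 1 lower. Over all genes, KO minus WT had a median of 0.36 (24 h) and 1.09 (0 h) with fibroblast marker scaling and −0.49 and −0.36 with spike-in scaling, against −0.09 and 0.06. The calls at 24 h were then 2430 higher and 1123 lower, and 793 and 3701, against 998 and 2121. At 0 h they were 11525 and 202, and 318 and 2608, against 1882 and 822. For 24 h minus 0 h in KO they were 128 and 6164, and 682 and 2712, against 1694 and 1952, and in WT 1778 and 1648, and 326 and 2629, against 3029 and 1070. Of the wider list, members included, the alternatives gave 4 to 14 lower at 24 h (8 of 32 measured as reported) and 1 to 21 higher at 0 h (4 of 37). The 14 came without a filter on dim probes, where 51 genes were counted. The causes were not tested. Spot error, 1 array per group, a cloned KO line and dim signals of Has1, Has3 and Cd44 probes p3 and p4 limit these values.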
